A study of Glycine max with 12 samples.

Results

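The genes described here are 4 lipoxygenases (*LOX10*, *LOX2*, *LOX3* and *VLXC*), *CYP74A1* and the allene oxide cyclase gene *AOC4* of soybean. They were taken by name: every soybean probe set of the Affymetrix Soybean Genome Array whose annotation gives 1 of these symbols and no other was included. This gave 7 probe sets for 6 genes, of 37593 soybean probe sets and 6029 genes with a symbol of their own. *LOX3* has 2 probe sets and the others have 1 each. Their NCBI gene IDs are 100127400 (*LOX10*), 547774 (*LOX2*), 547869 (*LOX3*), 547856 (*VLXC*), 100801764 (*CYP74A1*) and 100803666 (*AOC4*).

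Leaves of the third trifoliate were compared in a pair of related cultivars, SD01-76R, which is susceptible to the soybean aphid (S plants), and the resistant LD05-16060, which carries the *Rag1* resistance gene (R plants; the study's text spells this cultivar LD16060). Infested plants received 30 aphids each and were sampled on day 21, after the aphids had been removed, while uninfested plants were handled and netted in the same way without aphids. Each of the 4 groups had 3 arrays, and each array held leaf RNA pooled from 2 plants grown in a growth chamber. Nothing in the labels says that arrays of a group came from separate experiments, so p-values measure the spread between pools of plants grown together.

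Several limits come with this design. Infested plants stood on the left of the chamber and uninfested plants on the right, so that aphids and position cannot be told apart. Each cultivar comparison sets 1 line against 1 other line, and differences between them are not tied to *Rag1*. Aphid numbers were equal only at the start. By the harvest S plants carried many more aphids than R plants, for which reason the study itself set little store by infested R against infested S leaves, and in that comparison cultivar and aphid number cannot be told apart. As markers of the tissue, 10 of 11 probe sets of 5 leaf genes (for chlorophyll-binding proteins and Rubisco activase) lay above the control probe sets in all groups, and 0 of 9 probe sets of 6 seed genes did. In whole leaves, fewer cells of a type and less RNA per cell cannot be told apart.

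Jasmonates are lipid hormones made from polyunsaturated fatty acids of the chloroplast. A 13-lipoxygenase adds oxygen to the fatty acid, allene oxide synthase (a cytochrome P450 of the CYP74A family) turns the hydroperoxide into an unstable allene oxide, and allene oxide cyclase folds that into a precursor of jasmonic acid. The hormone is known for defense against chewing insects and for wound responses, and phloem feeders such as aphids often evoke other hormone pathways as well. Soybean lipoxygenases also serve purposes outside this pathway, as storage proteins of leaves and as abundant seed enzymes, so membership of the family does not by itself place a gene in jasmonate synthesis.

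Values are log2 intensities after quantile normalization, and differences are in log2 units. The median of the 60 control probe sets lay between 5.37 and 5.43 in the 4 groups and marks the level that is not told from background. *LOX2* and both *LOX3* probe sets were at that level, and *VLXC*, *LOX10*, *CYP74A1* and *AOC4* were above it in all 4 group means. Levels are compared only within a probe set, because the probes of different genes bind with different strength.

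**Figure D1:**
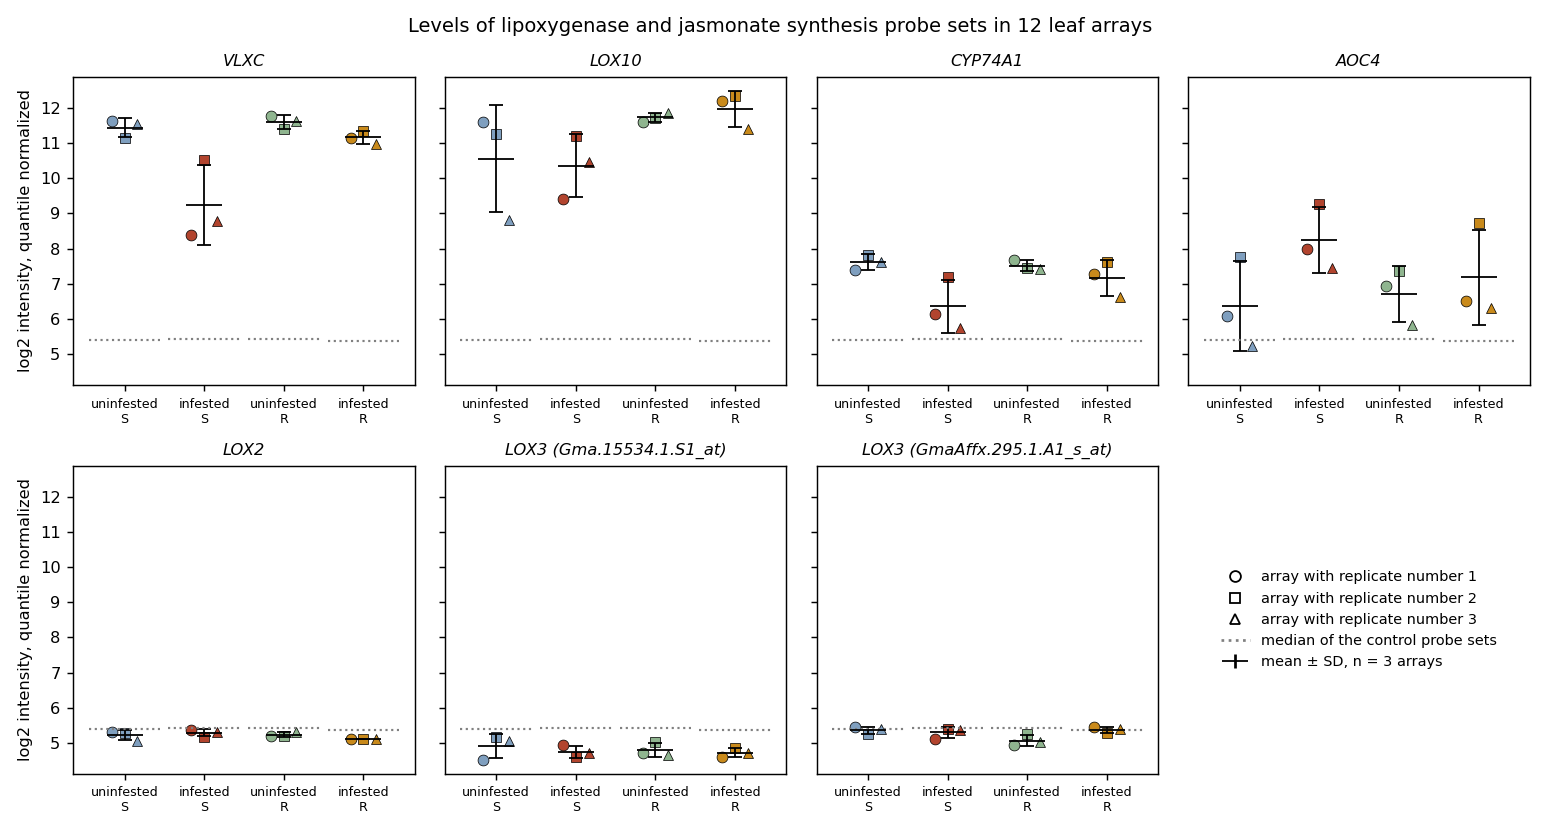
Log2 intensity (quantile normalized, vertical axis) of the 7 probe sets in the 4 groups, with 1 point per array, marker shapes for the replicate number, bars for the mean ± SD of 3 arrays, and a dotted line for the median of the control probe sets. Infested S arrays of VLXC lie at 8.40, 10.53 and 8.78, below the 9 other arrays, whereas LOX2 and LOX3 have means near or below the dotted line in every group.

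*VLXC* encodes a vegetative lipoxygenase, one of the lipoxygenases known to accumulate in soybean leaves. In S plants its level fell 4.64-fold with aphids. The uninfested S arrays read 11.65, 11.15 and 11.55 and the infested S arrays 8.40, 10.53 and 8.78, so the groups did not overlap, although the infested array with number 2 was less than 1 unit below the lowest uninfested one. The means were 11.45 ± 0.26 and 9.24 ± 1.14 (SD, n = 3), a difference of −2.21 (SE 0.41, 95% confidence interval −3.11 to −1.31, adjusted p = 0.0127 in limma).

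This was 1 of the 7 probe sets lower in S plants with aphids and 0 were higher, where 3.42% of all soybean probe sets were called, 0.902% lower and 2.51% higher. At an unadjusted p below 0.05 it was 3 of 7, against 16.6% of all. Arrays of both groups did not overlap for 2 of the 7, *VLXC* and *CYP74A1*, against 19.1% of all probe sets. Leaving out 1 array at a time gave differences for *VLXC* of −2.86 to −1.80, and the call was lost in 1 of the 12 cases, without infested S replicate 1 (adjusted p = 0.0565). It was also lost when only the 6 S arrays entered the fit (adjusted p = 0.0724). It passed with the replicate number in the fit as a block (adjusted p = 0.00744). That blocked call held without number 2 (−3.01, adjusted p = 3.77e-04) and was lost without number 1 (−1.70, 0.104) or number 3 (−1.93, 0.146).

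In R plants the difference of *VLXC* did not pass the test. The uninfested R arrays read 11.77, 11.41 and 11.65 and the infested R arrays 11.17, 11.36 and 10.98. Every infested array was thus below every uninfested one, by a difference of the means of −0.44 (SE 0.41, adjusted p = 1). With 3 arrays a group, the confidence interval still held differences from −1.34 to 0.46.

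Between cultivars, *VLXC* was 3.82-fold higher in infested R than in infested S leaves (1.93, SE 0.41, interval 1.03 to 2.83, adjusted p = 0.0285), again with no overlap. This comparison shares the infested S arrays with the S response and adds no separate evidence on them. It was the 1 probe set of 7 called here, where 3.00% of all probe sets were called 0.702% higher and 2.29% lower in R. The arrays did not overlap for 3 of the 7 (*VLXC*, *LOX10* and *LOX2*, the last at the control level), against 17.9% overall. With the block it passed (adjusted p = 0.0160), but not when number 1 (1.52, 0.192) or number 3 (1.79, 0.181) was left out. Without the block, leaving out 1 array lost the call in 5 of 12 cases: without infested S replicate 1 (1.52, adjusted p = 0.128) or 3 (1.70, 0.0937), and without infested R replicate 1 (1.94, 0.0988), 2 (1.84, 0.0536) or 3 (2.02, 0.0789). Uninfested R and S plants, sampled on the same day, differed by 0.16 (SE 0.41, adjusted p = 1.0).

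The order of the *VLXC* group means was uninfested R (11.61), uninfested S (11.45), infested R (11.17) and infested S (9.24). The arrays of the first and second groups overlapped, as did those of uninfested S and infested R, and of the first and last steps, which were tested, only the last passed. The S response differed from the R response by −1.77 (SE 0.58, unadjusted p = 0.0104), which failed the correction over all probe sets (adjusted p = 0.502). Without infested S replicate 2 the difference of responses was −2.42 and passed (adjusted p = 0.0169), so this array decides that call. None of the 7 probe sets passed this interaction test, which 0.00798% of all probe sets did. At an unadjusted p below 0.05, 1 of 7 did, against 6.92% of all. When the fit took the replicate number as a block, 0 of 7 and 0.178% of all did.

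*LOX10*, another lipoxygenase, had its highest group means in R plants, and its S arrays were scattered. The uninfested S arrays read 11.62, 11.27 and 8.81 and the infested S arrays 9.43, 11.21 and 10.46. Uninfested S replicate 3 lay more than 2 units below the other arrays of its group, so that the group SD was 1.53. The S response was −0.20 (SE 0.62, interval −1.56 to 1.16, adjusted p = 0.918). It was −1.08 without that array, 0.32 without uninfested S replicate 1, 0.15 without uninfested S replicate 2 and 0.26 without infested S replicate 1, so no direction can be given for it.

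In R plants the *LOX10* arrays were closer together, at 11.61, 11.74 and 11.87 without aphids and at 12.20, 12.35 and 11.40 with aphids. These groups overlapped, and the R response was 0.25 (SE 0.62, adjusted p = 1). Uninfested R exceeded uninfested S by 1.17 (SE 0.62, adjusted p = 1.0), and by 0.30 without uninfested S replicate 3. Among infested plants R exceeded S by 1.62 (SE 0.62, interval 0.26 to 2.98) with no overlap of the arrays and an unadjusted p of 0.0234, which did not pass over all probe sets (adjusted p = 0.223). Without uninfested S replicate 3, an array outside this comparison that enters only the shared spread, the adjusted p was 0.0445.

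The order of the *LOX10* means was infested R (11.98), uninfested R (11.74), uninfested S (10.57) and infested S (10.36). The arrays of each neighbouring pair overlapped. Uninfested R and uninfested S overlapped only narrowly, since the lowest R array read 11.61 and the highest S array 11.62. The responses of S and R plants differed by −0.45 (adjusted p = 0.976).

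*LOX2* and *LOX3* encode lipoxygenases best known as major proteins of the seed. The 12 arrays of *LOX2* lay between 5.06 and 5.36, with group means of 5.21 (uninfested S), 5.28 (infested S), 5.23 (uninfested R) and 5.11 (infested R). All of these means were below the control median of their group. The first *LOX3* probe set lay between 4.51 and 5.15, and the second between 4.92 and 5.44. The second carries the array's _s_at suffix, which marks probes that match more than 1 transcript, and its mean in infested R (5.37) was the 1 mean of these 12 that was not below the control median.

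Differences of these 3 probe sets between groups were at most 0.31 in size and describe values at background. The arrays of *LOX2* and of the second *LOX3* probe set did not overlap between infested and uninfested R plants, by −0.12 and 0.31. With *VLXC*, these made 3 of 7 probe sets without overlap in R plants, where 6.25% of all probe sets were without. Leaf RNA of these genes was not detectable on these arrays, which does not show that it was absent.

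*CYP74A1* belongs to the P450 family of allene oxide synthase. Its level in S plants was 2.40-fold lower with aphids, a difference that passed the test only in some fits. The uninfested S arrays read 7.39, 7.83 and 7.62 and the infested S arrays 6.12, 7.19 and 5.74. The groups did not overlap, and as with *VLXC* the infested array with number 2 was nearest to the uninfested ones. The difference of the means was −1.26 (SE 0.33, interval −1.99 to −0.54) with an adjusted p of 0.0624.

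The differences of *CYP74A1* within numbers 1, 2 and 3 were −1.27, −0.64 and −1.88. Once the fit took the number as a block, the SE was 0.26 and the adjusted p 0.0133. The blocked call held without number 2 (−1.58, adjusted p = 0.00712) and was lost without number 1 (−1.25, 0.104) or number 3 (−0.96, 0.156). Without the block, *CYP74A1* passed when infested S replicate 2 (−1.69, adjusted p = 0.00568) or infested R replicate 2 (0.0494) was left out, and with median centring in place of quantile normalization (−1.23, 0.0483).

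The *CYP74A1* arrays of R plants read 7.69, 7.43 and 7.40 without aphids and 7.26, 7.61 and 6.61 with aphids, and they overlapped. The R response was −0.35 (SE 0.33, adjusted p = 1). Uninfested R and S differed by −0.11 (SE 0.33, adjusted p = 1.0). Among infested plants R was higher by 0.81 (SE 0.33, unadjusted p = 0.0313, adjusted p = 0.260), and this passed only without infested S replicate 2 (1.23, adjusted p = 0.0252), or with the block when number 2 was left out (1.00, 0.0403). The order of the means was uninfested S (7.61), uninfested R (7.51), infested R (7.16) and infested S (6.35), and the arrays of each neighbouring pair overlapped. The responses of the cultivars differed by −0.92 (adjusted p = 0.775).

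*AOC4* encodes an allene oxide cyclase. In S plants its value with aphids was the larger one, opposite in sign to *VLXC* and *CYP74A1*, and the difference passed the test only with the replicate number in the fit. The uninfested S arrays read 6.07, 7.77 and 5.23 and the infested S arrays 7.98, 9.28 and 7.45. These groups overlapped, because uninfested replicate 2 was higher than infested replicate 3. The lowest array was below its control median of 5.40. The means of 6.35 ± 1.29 and 8.24 ± 0.94 differed by 1.88 (SE 0.75, interval 0.24 to 3.52, unadjusted p = 0.0278, adjusted p = 0.228).

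Number 2 held the highest *AOC4* value in each of the 4 groups, and the means by number over the groups were 6.87, 8.29 and 6.20. Within numbers 1, 2 and 3 the S differences were 1.92, 1.51 and 2.22, all positive and close together. With the number as a block the difference kept its value, its SE was 0.26 and its interval 1.30 to 2.46, and it passed the test (adjusted p = 0.00162). With the block, the 7 probe sets gave 1 higher (*AOC4*) and 2 lower (*VLXC* and *CYP74A1*), and 6.57% of all probe sets were called, 4.34% higher and 2.23% lower. The blocked *AOC4* call held without number 1 (1.86, adjusted p = 0.00693) or number 2 (2.07, 0.00232) and was lost without number 3 (1.72, 0.0634). The plants stood in blocks in the chamber, and the sources used here do not say whether a number stands for blocks.

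**Figure D2:**
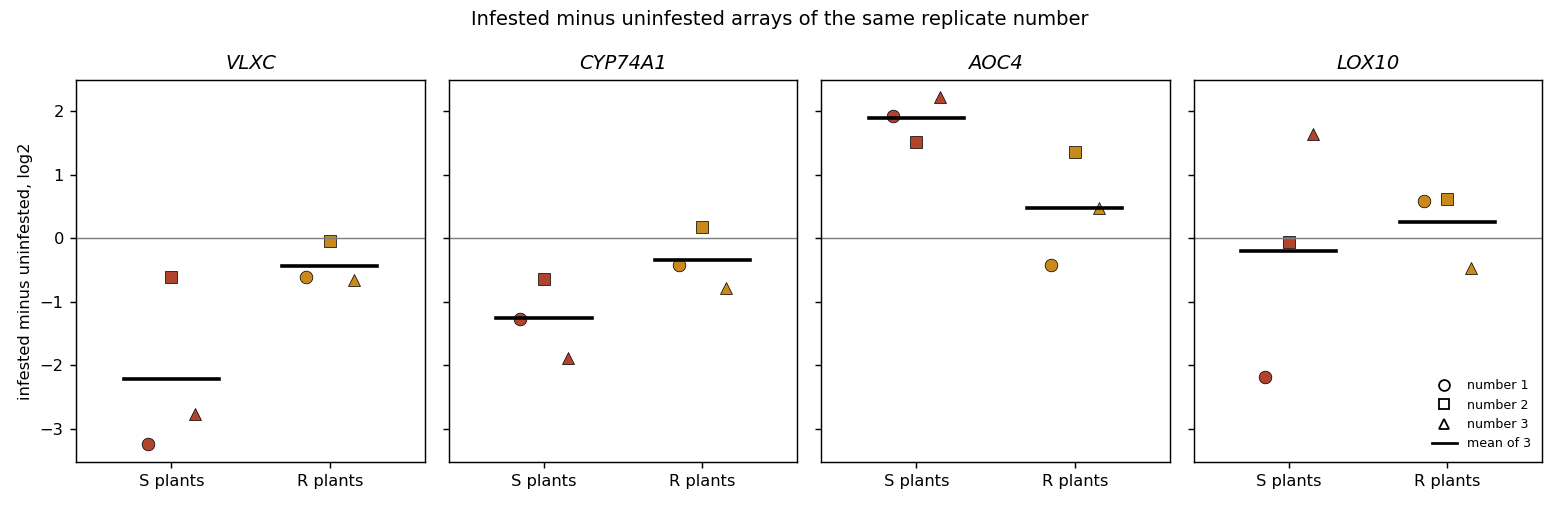
Infested minus uninfested log2 intensity of the arrays that share a replicate number, for S and R plants, with marker shapes for numbers 1 to 3 and a line at their mean. AOC4 in S plants lies at 1.92, 1.51 and 2.22, VLXC at −3.25, −0.62 and −2.77, and LOX10 runs from −2.19 to 1.65.

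In R plants the *AOC4* arrays read 6.93, 7.37 and 5.83 without aphids and 6.50, 8.73 and 6.30 with aphids. They overlapped and gave an R response of 0.47 (SE 0.75, adjusted p = 1), which was −0.31 without infested R replicate 2. Uninfested R and S differed by 0.35 (SE 0.75, adjusted p = 1.0), and by −0.21 without uninfested S replicate 3. Among infested plants R was lower by 1.06 on the log2 scale (SE 0.75, adjusted p = 0.583), and this passed with the block (adjusted p = 0.0364, where 6.34% of all probe sets were called, 1.88% higher and 4.46% lower). That blocked call held without number 2 (−1.32, adjusted p = 0.0138) and was lost without number 1 (−0.85, 0.229) or number 3 (−1.02, 0.249).

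The order of the *AOC4* means was infested S (8.24), infested R (7.18), uninfested R (6.71) and uninfested S (6.35), and the arrays of each neighbouring pair overlapped. The responses of S and R plants differed by 1.42 (adjusted p = 0.890, and 0.183 with the block).

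**Figure D3:**
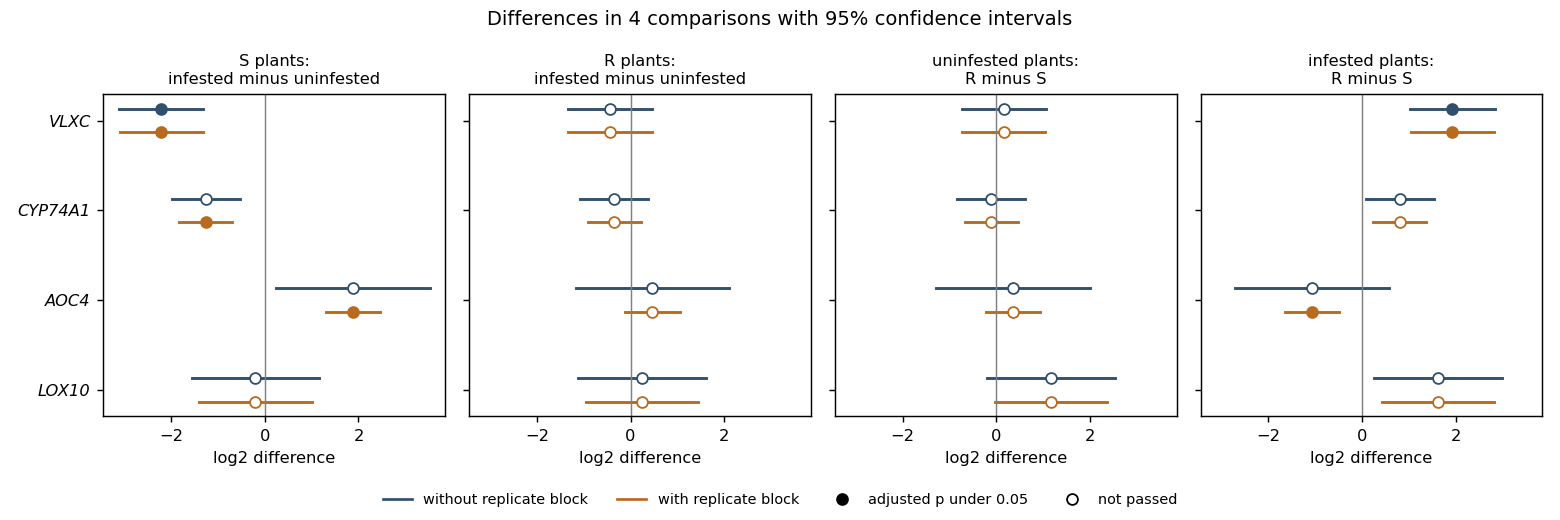
Log2 differences (horizontal axis) with 95% confidence intervals for 4 probe sets above the control level in 4 comparisons, fitted without (blue) and with (orange) the replicate number as a block, with filled symbols for an adjusted p under 0.05. VLXC is filled in both fits for S plants and for infested plants. With the block only, CYP74A1 is filled for S plants, and AOC4 for S plants and for infested plants. No symbol is filled for R plants or between uninfested cultivars.

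Of the 7 probe sets, 0 passed in R plants, where 0% of all probe sets did (1 of 7 and 2.06% at an unadjusted p below 0.05). Between uninfested cultivars 0 passed as well, where 0.0745% of all did (0 and 2.90% unadjusted), and 0 of the 7 were without overlap against 7.50% of all. The block fit also gave 0 calls among the 7 in both comparisons, against 0% and 0.141% of all. The median difference over the 7 probe sets was −0.16 in S plants, −0.08 in R plants, 0.02 between uninfested cultivars and 0.08 between infested ones. Over all probe sets the medians were −0.04, −0.01, 0.01 and 0.04.

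The 4 probe sets above the control level varied more between arrays of a group than most of the array. The pooled within-group SD was 1.12 for *AOC4*, 0.92 for *LOX10*, 0.60 for *VLXC* and 0.47 for *CYP74A1*, and 99.5%, 98.9%, 95.5% and 91.3% of all probe sets had a smaller one. The median over all probe sets was 0.23. All probe sets include those near the control level, and the spread was not compared among probe sets of similar level. The spread of *VLXC* came mainly from the infested S group, that of *LOX10* from the S plants, and that of *AOC4* from all 4 groups.

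The annotation held 13 further genes of the enzyme families used in jasmonate synthesis, with 30 probe sets: lipoxygenases, allene oxide synthases and cyclases, and fatty acid desaturases. Not all of them need act in that pathway. In S plants 1 of the 30 was lower with aphids and 0 were higher (median −0.43), which is near the shares over all probe sets, 0.902% lower and 2.51% higher. It belonged to *FAD3C*, a fatty acid desaturase of the endoplasmic reticulum, whose arrays read 6.04, 6.12 and 5.93 without and 5.31, 5.31 and 5.49 with aphids (−0.66, adjusted p = 0.0216). The infested mean of 5.37 was at the control level. Of the 16 probe sets of 5 other lipoxygenase genes (*LOX7*, *LOX9*, *VLXB*, *LOXB1* and *LOX1.1*, range −0.76 to 0.75), 0 passed in S plants, and 3 had an unadjusted p below 0.05. These were both probe sets of *VLXB*, another vegetative lipoxygenase (−0.49 and −0.51, adjusted p = 0.128 and 0.109), and 1 of *LOX9* (−0.76, adjusted p = 0.285), all with lower values with aphids and no overlap of the arrays. Over all probe sets 16.6% had an unadjusted p below 0.05 and 19.1% were without overlap, so 3 of 16 is near these shares.

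Most values of the other lipoxygenases were larger in R than in S leaves, mostly without passing the test. Among infested plants all 16 probe sets had a positive difference (0.17 to 1.68, median 1.01). Of these, 10 had an unadjusted p below 0.05, against 15.3% of all probe sets, and 1 passed, against 3.00% called and 0.702% higher. All 10 belonged to *LOX9*, *LOXB1* and *VLXB*, and none to *LOX7* or *LOX1.1*. Among uninfested plants the median of the 16 was 0.68 (range −0.07 to 1.26). Of these, 4 had an unadjusted p below 0.05, against 2.90% of all probe sets, and 0 passed, against 0.0745%. The 4 were probe sets of *LOX9* (unadjusted p = 0.0301, 0.0459 and 0.0482 in limma) and 1 of *LOXB1* (0.0490), so they come mainly from 1 gene. Both probe sets of *VLXB* were at −0.02 and −0.07 there. The probe sets of *LOX7* (0.96 to 1.26) all read low on 1 array, uninfested S replicate 3, as described below. Several of the 16 probe sets share a gene or probes and are not separate measurements. The probe set that passed belonged to *LOX9* with infested S arrays at 7.51, 8.33 and 7.73 and infested R arrays at 9.84, 9.82 and 8.77 (1.62, SE 0.34, adjusted p = 0.0256). Its difference between uninfested cultivars was 0.84 (SE 0.34, unadjusted p = 0.0301, adjusted p = 1.0).

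The 4 probe sets of *AOS1* and *AOS2*, which are annotated as allene oxide synthases, had S responses between −0.67 and −0.18 and none passed. *AOC3* and *AOC6*, the other allene oxide cyclase genes, had values in S plants opposite in sign to that of *AOC4*. Their 3 probe sets lay between −1.32 and −0.29 and none passed, with *AOC6* at −1.32 (adjusted p = 0.118). Of 7 probe sets of 4 desaturase genes, which supply the fatty acid substrate, *FAD7-2* had a value of 1.50 (adjusted p = 0.0978) and *FAD8.2* of −1.07 (adjusted p = 0.0766) at the largest.

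**Figure D4:**
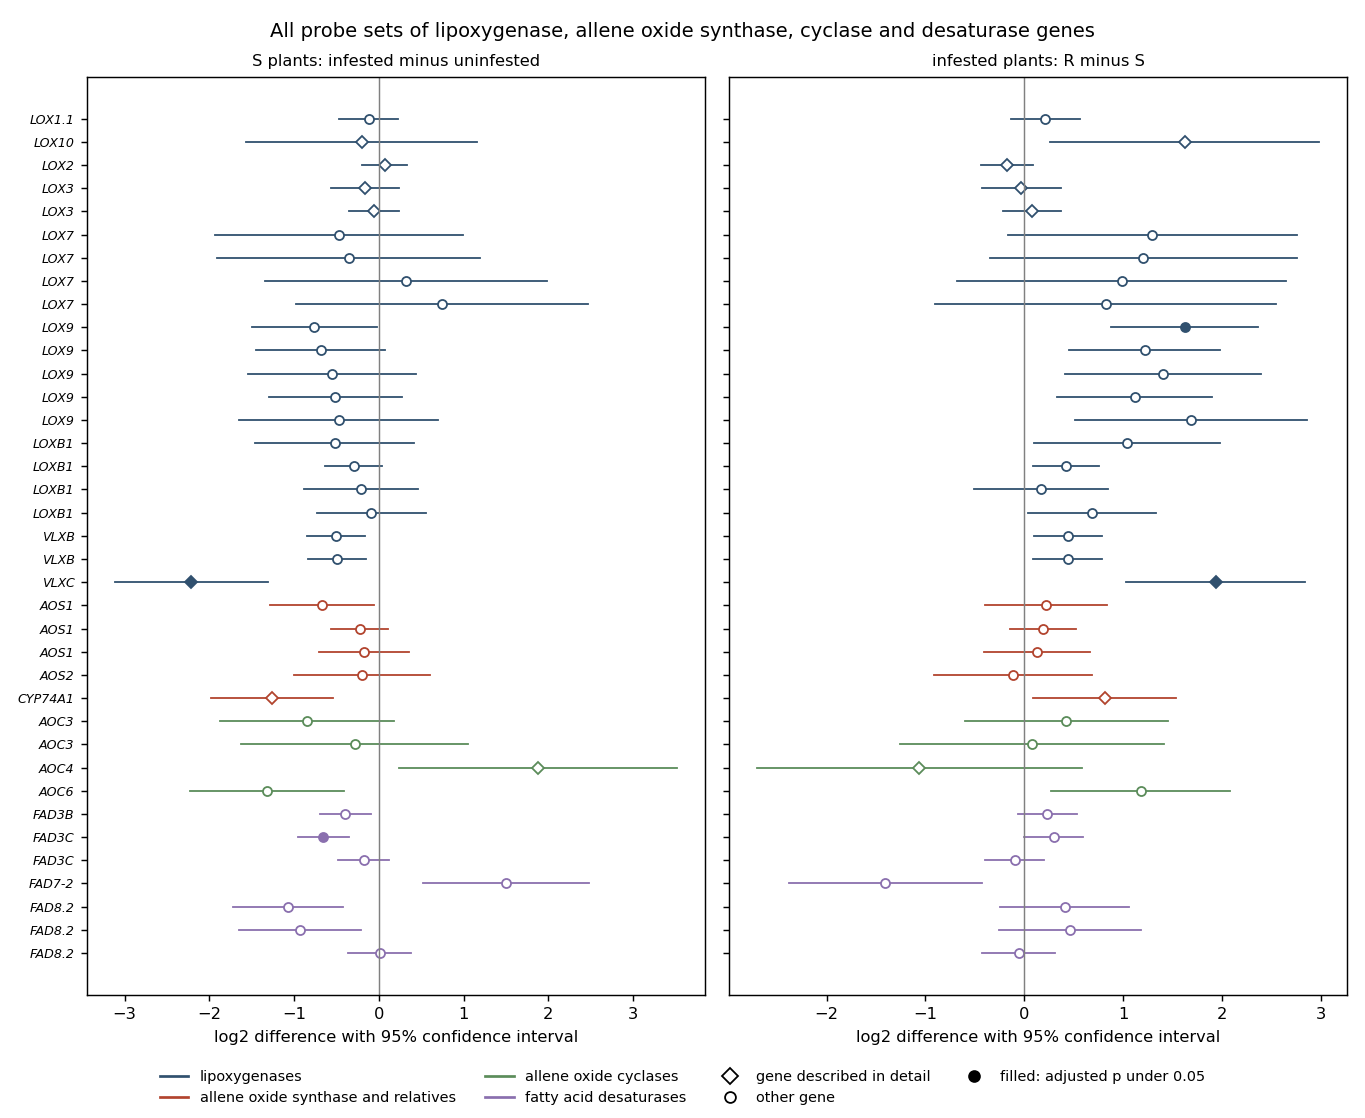
Log2 differences with 95% confidence intervals for all 37 probe sets of 19 lipoxygenase, allene oxide synthase, allene oxide cyclase and desaturase genes, for S plants with against without aphids (left) and infested R against infested S plants (right), coloured by enzyme family, with diamonds for the 6 genes described in detail and filled symbols for an adjusted p under 0.05. VLXC at −2.21 and FAD3C at −0.66 are filled on the left, and VLXC at 1.93 and LOX9 at 1.62 on the right.

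A second list held genes downstream of the hormone: *COI1*, which encodes its receptor (6 probe sets), *VSPA* for a vegetative storage protein (8 probe sets), and 7 genes of protease inhibitors (9 probe sets). Storage protein and protease inhibitor genes are known to respond to jasmonate, whereas *COI1* perceives it, and *KTI3* of the inhibitors is also 1 of the seed genes above. None of their 23 probe sets passed in any of the 5 comparisons, with or without the block. At most 3.42% of all probe sets passed in a comparison without the block and 6.57% with it, so a count of 0 of 23 is close to these shares. In S plants their median was −0.05. The largest S differences in size were −2.09 for a probe set of *VSPA* and −1.78 for *KTI-2*, a Kunitz-type trypsin inhibitor gene. Between infested cultivars *KTI-2* (2.42, adjusted p = 0.100) and *KTI-3* (2.26 and 2.27, adjusted p = 0.0799 and 0.0946) had larger values in R plants and did not pass. Both probe sets of the inhibitor gene *BBI-1* had smaller values in R plants (−1.11 and −0.45, adjusted p = 0.192 and 0.236). At an unadjusted p below 0.05, 3 of the 9 inhibitor probe sets were higher and 2 lower in R, and the median of the 9 was −0.05. This second list held no repressor of the jasmonate response, so it covers only a part of that response. The study reported raised jasmonate and salicylate signaling in S plants, from terms overrepresented among its own called genes and from a second method. Those measures are unlike the counts given here.

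Some of the lipoxygenase genes lie side by side in the RefSeq annotation of assembly Glycine_max_v4.0. *LOX2*, *LOX1.1*, *LOXB1* and *LOX7* follow each other with 0 coding genes between neighbours, and *LOX3* and *VLXB* have 1 coding gene between them. *LOX2* was at the control level in all 4 groups, and *LOX1.1* was close to it, with means of 5.40 to 5.62. All probe sets of *LOXB1* and *LOX7* were above it.

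*LOX7* was also the gene whose array profile was most like that of *LOX10*. Likeness was measured as the root mean square (RMS) difference between profiles over the 12 arrays, each centred on its own mean, among 6029 genes. Each gene was represented by its closest probe set, which for *LOX7* was 1 of 4. *LOX7* differed from *LOX10* by 0.32, against an RMS of 1.03 for *LOX10* about its own mean, followed by LOC100815007 at 0.46 and *H-1* at 0.57. The 4 probe sets of *LOX7* shared the low value on uninfested S replicate 3, where they read 8.70 to 10.15 against 11.89 to 12.94 on replicates 1 and 2. The *LOX9* probe set described above did not, at 8.78 against 8.56 and 8.52.

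For *VLXC* (own RMS 1.07) the genes most alike were LOC547898 at 0.24, *CYP93E1*, a P450 of soyasaponin synthesis, at 0.31, and LOC100500325 at 0.33. For *CYP74A1* (own RMS 0.63) they were LOC100305905 at 0.31, the receptor-like kinase gene *RLK3* at 0.31 and the glycosyltransferase gene *UGT1* at 0.31. For *AOC4* (own RMS 1.16) they were the transcription factor genes *WRKY56* at 0.40, *ERF6* at 0.41 and *WRKY27* at 0.41. These genes were picked for their likeness on these 12 arrays, so it is a description and was not tested.

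**Figure D5:**
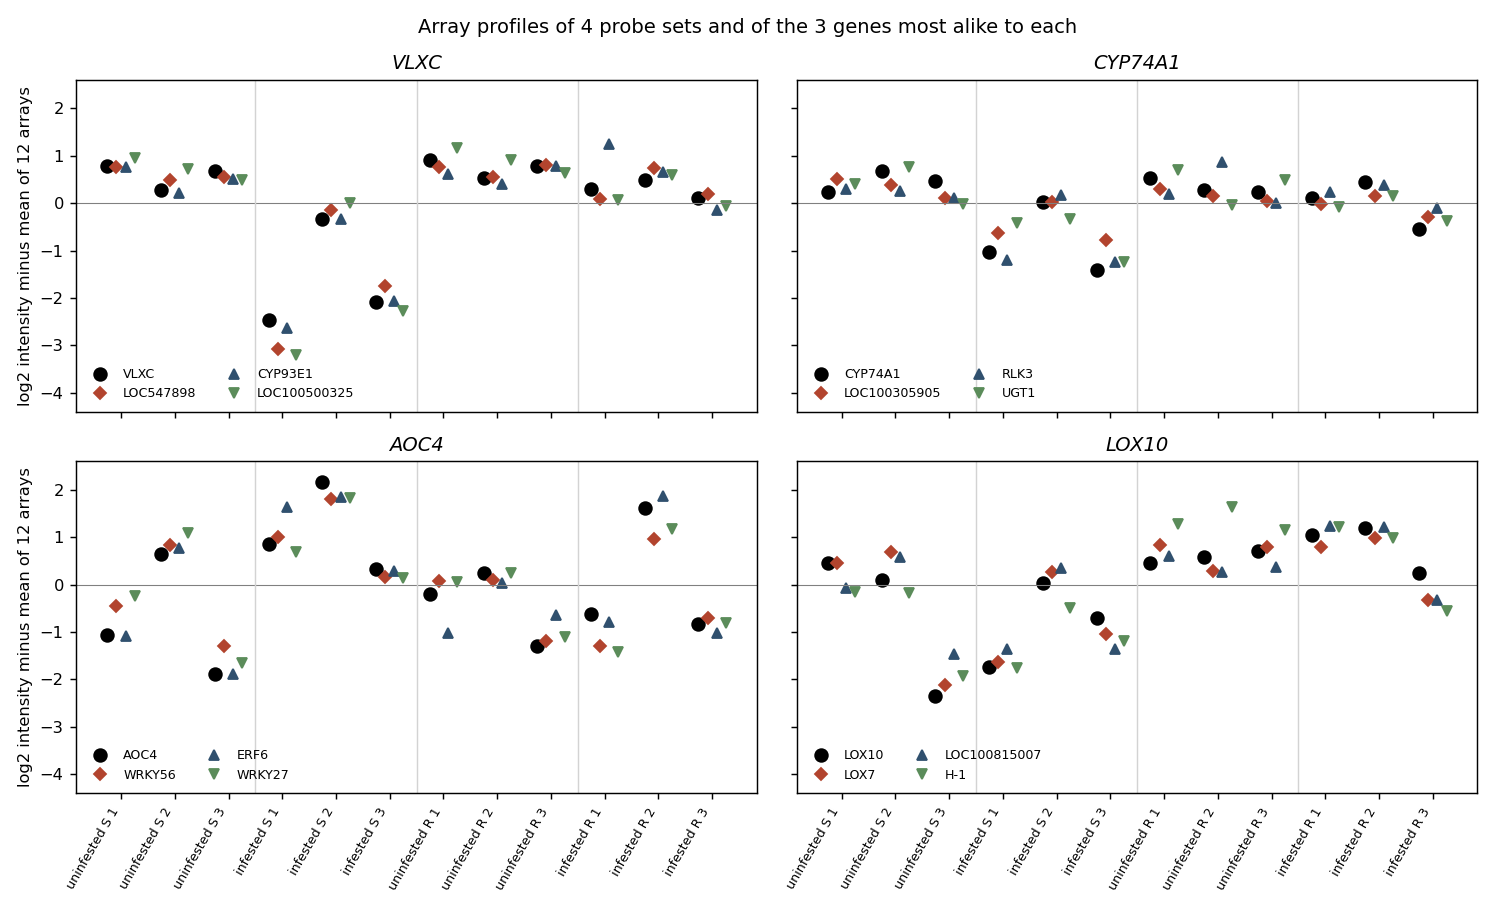
Log2 intensity minus the mean of 12 arrays (vertical axis) for VLXC, CYP74A1, AOC4 and LOX10 (black) and for the 3 genes most alike to each (coloured), with the 12 arrays in the order of groups along the horizontal axis. The VLXC panel has its low points on infested S arrays 1 and 3, the AOC4 panel the highest points of each group on the array numbered 2, and the LOX10 panel its lowest on uninfested S array 3.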

How the data were processed

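Expression was measured on 12 Affymetrix Soybean Genome Arrays, 3 per group. The number of arrays, the spread between pools and signals near the control level limit the precision, and arrays give no read depth. The values are log2 values of 37653 probe sets as deposited by the authors. The study names GCRMA for normalization, and the sample notes list RMA, GCRMA and limma without versions. However, 99.6% of the deposited values are the log2 of a whole number (to within 1e-06 of it), and the medians of the arrays lie between 6.86 and 7.71. No normalization between arrays therefore shows in them, and what was done to the intensities before is not given in the sources used here.

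The 37593 soybean probe sets were quantile normalized and fitted in R 4.3.3 using limma 3.58.1, with the 4 group means estimated from all 12 arrays together and Benjamini-Hochberg adjustment over all soybean probe sets (threshold 0.05). The plants were laid out in complete blocks within plots set by aphid treatment and by distance from the back wall. The study's model for the arrays names aphids, genotype and their interaction and no block, so none was used in the main fit. How blocks and positions fell into the pools of 2 plants is not given in the sources used here. Same-numbered arrays deviated together in the S comparison (correlations of their deviations 0.13 to 0.36, although differently numbered arrays reached 0.20, above numbers 1 and 3), between uninfested cultivars (0.29 to 0.48) and between infested cultivars (0.17 to 0.42), so the fit with the number as a block is given beside each call it changes. No arrays held identical values.

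Genes were named from the platform annotation, where 8677 probe sets have 1 symbol, 370 have several and 28546 have none here. Probe sets with several symbols were not used. The 19 genes of these enzyme families matched RefSeq by gene ID with the same symbol. Named genes are all probe sets of the 6 genes, pathway genes that passed a test (others with values are the largest of their role and were chosen after seeing them), and, for probe sets above the control level spanning at least 1 log2 unit, the 3 genes with the most alike profile. The members and lists were chosen with earlier results of these data known. Symbol patterns for 12-oxophytodienoate reductases, beta-oxidation, jasmonate conjugation, transcription factors and nodule markers matched no symbol. The pattern for jasmonate repressors and receptor matched only *COI1*.

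Tested on simulated data for the S comparison, with 37593 probe sets, the fit recovered 2%, 48%, 94% and 98% of changes of 0.5, 1, 2 and 3 log2 units, and 9 of 130 calls were false. Changes were placed only in probe sets with a mean above 7. The noise had each probe set's own SD and no effect shared by a replicate number. The 4 probe sets above the control level had SDs of 0.47 to 1.12, against a median of 0.23, so these shares need not hold for them. Alternatives were the deposited scale, median centring, normexp background correction (offset 50), a filter on low values (passed by 4 of the 7 probe sets), all probe sets with controls, a trended robust moderation, the replicate block, only the arrays compared, and fits without single arrays. The block without each number was added after seeing the data.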

Additional observations from a re-analysis of the deposited data

How the results depend on the processing

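The count of called probe sets among the 7 was 1 in S plants. It was 2 with median centring, 3 with the replicate block, 0 with only the arrays compared, 0 to 2 when single arrays were left out, and 3 and 0 with the replicate block without numbers 2 and 3. Between infested cultivars the count of 1 was 2 with the replicate block, 0 with only the arrays compared, 0 to 2 without single arrays, and 0, 3 and 0 with the replicate block without numbers 1, 2 and 3. The interaction count of 0 was 0 to 1 without single arrays and 2 with the replicate block without number 2 (*VLXC* at −2.38, adjusted p = 0.0208, and *AOC4* at 2.04, 0.0376). The block, with the numbers as its pairing, changed no call other than those of *CYP74A1* and *AOC4*. In R plants same-numbered arrays correlated at −0.12 to 0.49, and differently numbered ones reached 0.39, so a pairing by number does not show there. The block fit still used the numbers of all arrays, those of R plants included, and its SEs draw on them. It gave 0 calls in R plants. For the 4 probe sets above the control level, signs turned only with left-out arrays or numbers, while *LOX2* and *LOX3* also changed sign with the scaling (*LOX2* in S plants 0.07, and −0.02 on the deposited scale). *LOX10* ran from −1.08 to 0.32 in the S response (0.79 with the replicate block without number 1) and from −1.33 to 0.077 in the interaction (0.71 likewise). *AOC4* ran from −0.31 to 0.91 in R plants and from −0.21 to 1.06 between uninfested cultivars, where *CYP74A1* was 0.037 with the replicate block without number 2. The causes were not tested. Under the other alternatives *VLXC* passed in 7 of 8 in S plants (−2.39 to −2.15) and in 7 of 8 between infested cultivars (1.87 to 2.03). Calls over all probe sets were 1284 in S plants (2468 with the block, 765 with only the arrays compared), 1126 between infested cultivars (2383 and 602), 28 between uninfested ones (53 with the block) and 3 in the interaction (67 with the block). On the deposited scale the median S response over all probe sets was −0.17, against −0.04 after normalization. Signals at the control level limit *LOX2* and *LOX3*.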
